A study of Mus musculus with 7 samples.

Results

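The amino acid carriers of mouse cells that belong to the solute carrier families SLC1, SLC3, SLC6, SLC7, SLC36, SLC38 and SLC43 were followed as a group in an erythroid cell line with and without the long non-coding RNA gene Lockd. Members were the genes whose symbol named one of these families followed by a number, read from probesets (sets of probes for one transcript) annotated with exactly 1 gene symbol. This gave 59 genes, measured by 63 probesets, of 22180 genes with such a probeset. A gene with several probesets was represented by the one with the highest mean over all 7 arrays. The RefSeq gene table held 61 genes with such symbols. Slc6a9, the glycine carrier GlyT1, was left out because its probeset is also annotated to Ccdc24, and another gene was not used here.

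Total RNA was hybridised to 7 arrays of the Affymetrix Mouse Gene 2.0 ST type. The deletion group comprised 4 arrays of G1E cells from which Lockd had been removed by CRISPR/Cas9, and the control group comprised 3 arrays of G1E cells of Lockd wild-type genotype. Both groups share the G1E background, a line derived from mouse embryonic stem cells that lacks functional GATA1 and therefore stays at an immature erythroid precursor stage, and both were grown in the medium of that line with no further agent named. The design text calls the samples clones, and the labels do not say which arrays came from separate clones or cultures, so the p-values rest on a spread between samples that could be technical only. All values are log2 signals after robust multi-array averaging (RMA), in which a step of 1 is a doubling, and all differences are deletion minus control.

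Amino acid carriers move amino acids across the plasma membrane or the membranes of lysosomes and synaptic vesicles, driven by sodium, by protons or by exchange of one amino acid for another. Light chains of the SLC7 family reach the cell surface only when joined to a heavy chain of the SLC3 family, and the pairs exchange large neutral, cationic or acidic amino acids. Leucine, glutamine and arginine taken up by these carriers feed protein synthesis and the kinase complex mTORC1. Shortage of amino acids raises translation of the transcription factor ATF4, which activates many of the carrier genes. Erythroid precursors take up large amounts of amino acids for globin synthesis and use glycine for heme.

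The deletion was seen at the array. Lockd read 5.09, 5.15, 4.17 and 5.15 on deletion replicates 1 to 4, against 7.89, 8.04 and 7.80 on control replicates 1 to 3, with no overlap, and it fell by 3.02 on the log2 scale (SE 0.23, limma adjusted p = 0.0162). Its neighbour Cdkn1b, which encodes the cell cycle inhibitor p27, fell by 1.14 (SE 0.10, limma adjusted p = 0.0251). Both adjusted p passed the threshold of 0.05 with all arrays and without deletion replicate 2. Without any other single array at least 1 of them did not pass, Cdkn1b without deletion replicate 3 and both without each of the remaining 5, with Lockd differences of -3.10 to -2.78 and Cdkn1b differences of -1.21 to -1.08 over all such fits. The 12 erythroid precursor markers read 7.70 to 13.24, with Gata2 at 12.44 and Kit at 11.70. The 8 measured lymphoid markers read 3.80 to 5.71, a range used here as a guide to the signal of genes that such cells should lack. Mast cell markers were mixed, with Cpa3 at 10.75, Ms4a2 at 9.13 and Rgs13 at 8.12 among 12 genes that otherwise ran down to 2.93. These named genes varied widely between replicates. Within the control arrays Cpa3 read 9.53 to 11.97, Ms4a2 7.55 to 9.99 and Rgs13 7.31 to 9.34. Macrophage and neutrophil markers read 3.08 to 7.90, the highest being Cd68, and stromal and endothelial markers 5.08 to 6.92. Arrays correlated at 0.993 to 0.996 with one another. Their medians lay between 5.417 and 5.463.

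No amino acid carrier gene passed the test between the groups. In the limma fit 0 of 59 members had an adjusted p under 0.05, beside 2 of 22180 genes, or 0.00902% of all genes and 0.0085% of all tested probesets. The lowest adjusted p of a member was 0.999, and the count was also 0 under all 15 alternative settings, where the lowest was 0.618. At an unadjusted p under 0.05, 1 of 59 members was found in the limma fit, beside 4.61% of all genes, and it was Slc1a6, which was higher in deletion cells (2.24% of all genes were called in that direction). That is 1.69% of the members, which is not above the background. Differences were positive for 28 members and negative for 31. Their median was -0.01, beside 0.01 over all genes. In 51 of 59 members, or 86.4%, the group means differed by less than 1.1-fold, beside 79.4% of all genes.

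The intervals of the differences were narrow for most carriers. The 95% interval of the difference lay between -0.5 and 0.5 for 55 of 59 members, and for 17 of the 20 bright members described below. Among all 59 the exceptions were Slc43a1, Slc7a11, Slc7a3 and Slc36a3, whose replicates of the same group disagreed. Most of the other members are dim, which limits what can be seen, and the spread behind the intervals could be technical only. Simulated data were built on all 23521 tested probesets, with 200 of them changed. On these the limma fit recovered 48.2% of changes of 0.5 and 88.4% of changes of 1. It made 176.2 calls there on average, against 2 on the real data, and more calls make the adjusted threshold easier to pass. The rates are thus likely too high for a single carrier here, and a change of 0.5 or more could pass unseen.

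**Figure D1:**
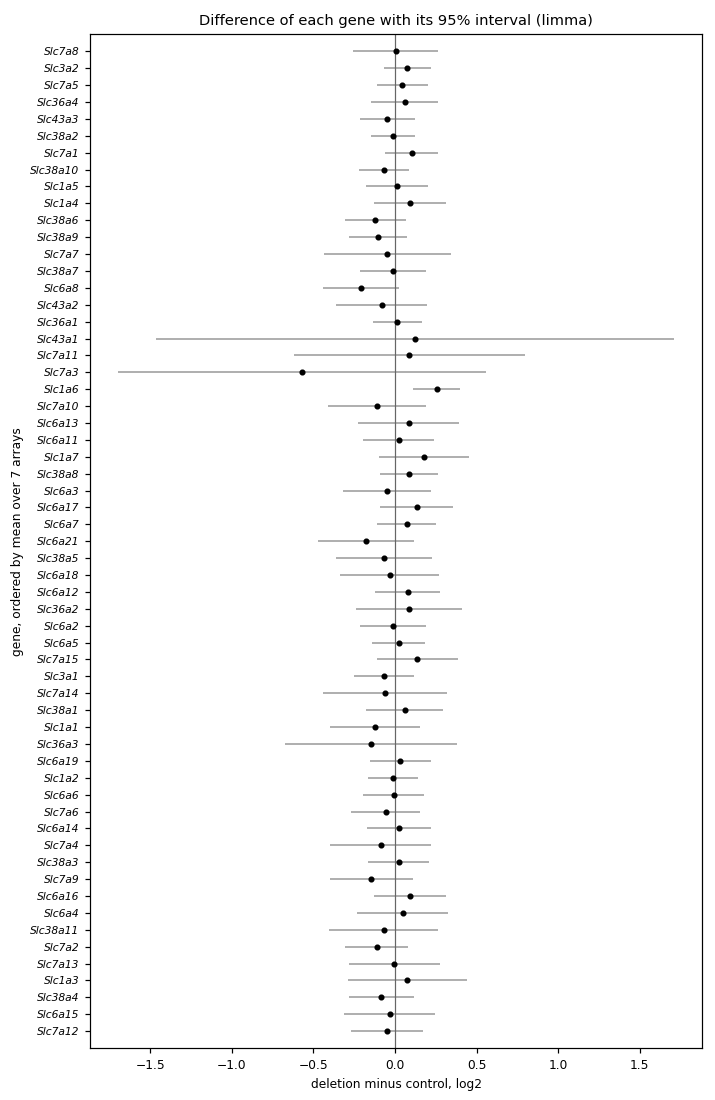
Deletion minus control difference on the log2 scale (horizontal axis) for the 59 amino acid carrier genes, ordered by mean signal from top to bottom. Points are limma estimates and bars their 95% intervals. The interval of Slc1a6 alone, 0.11 to 0.40, does not cross 0, and the widest interval, that of Slc43a1, runs from -1.47 to 1.71.

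The 59 genes were divided into a bright and a dim set at the widest gap close to a signal of 6, a split drawn after the values were seen. Wider gaps lie within the bright set, such as that between Slc7a1 at 10.74 and Slc38a10 at 9.52. The 20 bright genes read between 6.73 and 12.74 as means over 7 arrays. The other 39 read from 5.99 down to 3.23, the value of Slc7a12, at or near the levels of the lymphoid markers, and 27 of 59 members lay above 5.72, the median of all genes. RMA gives no detection call, so a dim signal was not read as absence. The order is one of probeset signal, which also depends on the probes, and not an order of transcript numbers. The 10 brightest were Slc7a8, Slc3a2, Slc7a5, Slc36a4, Slc43a3, Slc38a2, Slc7a1, Slc38a10, Slc1a5 and Slc1a4, and the same 10 led in deletion arrays alone and in control arrays alone. When the probesets of a gene were averaged, 7 of these 10 remained in the leading 10, because Slc36a4, Slc38a10 and Slc1a5 each have a second, dim probeset.

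**Figure D2:**
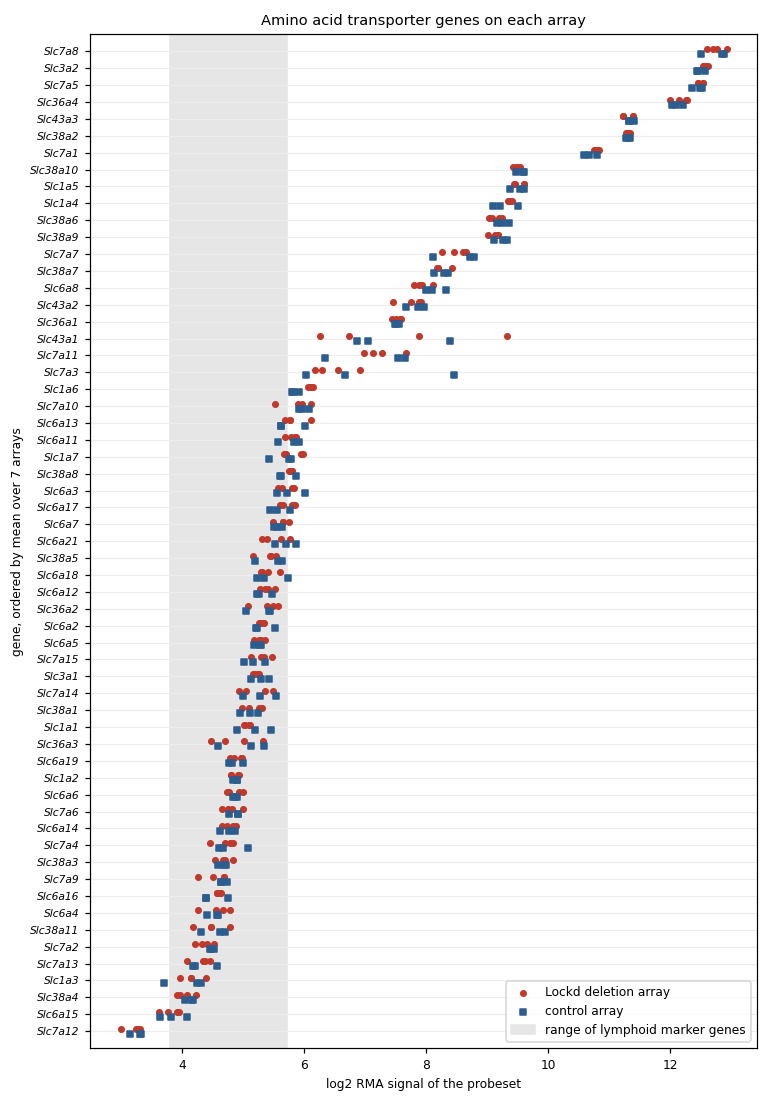
Log2 RMA signal (horizontal axis) of each of the 59 amino acid carrier genes on each array, ordered by mean from top to bottom. Red circles are the 4 Lockd deletion arrays, blue squares the 3 control arrays, and the grey band is the range of the lymphoid marker genes, 3.80 to 5.71. Symbols of both groups lie together for most genes, and they spread widely within both groups for Slc43a1, Slc7a11 and Slc7a3.

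The heavy chain Slc3a2, also called 4F2hc or CD98, and its light chains for large neutral amino acids were the brightest carriers. Slc3a2 read 12.53, 12.61, 12.55 and 12.57 on deletion replicates 1 to 4, against 12.56, 12.44 and 12.46 on control replicates 1 to 3. The deletion arrays lay in the upper part of the range and control replicate 1 lay among them, so the groups overlapped. Means were 12.56 ± 0.04 in deletion cells (SD, n = 4) and 12.49 ± 0.07 in control cells (SD, n = 3), a difference of 0.08 (SE 0.06). The other heavy chain, Slc3a1, which carries the cystine and dibasic amino acid exchanger of kidney and gut, was dim at 5.24. Slc7a5, the light chain LAT1 for leucine and other large neutral amino acids, read 12.53, 12.54, 12.45 and 12.45 in deletion cells, against 12.52, 12.48 and 12.35 in control cells. Control replicate 3 was the lowest array and the groups overlapped, with a difference of 0.04 (SE 0.07).

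Slc7a8, the related light chain LAT2, gave the highest signal of all 59 genes. It read 12.70, 12.92, 12.59 and 12.77 on deletion replicates 1 to 4, against 12.85, 12.50 and 12.87 on control replicates 1 to 3. Control replicate 2 was the lowest array and deletion replicate 2 the highest, and the difference of 0.00 (SE 0.11) was far smaller than this spread. Its within-group standard deviation of 0.17 was wider than that of 71.4% of all genes, against 7.21% for Slc3a2. Of the 10 SLC7 light chains measured, 4 were in the bright set, namely Slc7a8, Slc7a5, Slc7a7 and Slc7a11. The remaining 6, among them Slc7a9 of the kidney cystine carrier, read 5.93 or less. Slc7a9 differed by -0.14 (SE 0.11) and the little studied Slc7a15 by 0.14 (SE 0.11), both within overlapping groups.

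Slc7a11, the light chain xCT that imports cystine in exchange for glutamate, varied more between arrays than nearly all genes. It read 7.13, 7.28, 7.68 and 6.98 on deletion replicates 1 to 4, against 7.55, 7.65 and 6.34 on control replicates 1 to 3. Control replicate 3 stood lowest by a wide margin and deletion replicate 3 was the highest array, and the other 3 deletion arrays lay within the range of the control arrays. The deletion arrays spanned 1.62-fold and the control arrays 2.49-fold. The limma difference was 0.09 (SE 0.31, 95% interval -0.62 to 0.80), and it was -0.33 without control replicate 3 and -0.05 without deletion replicate 3. The second probeset of the gene was dim at 3.30 and differed by -0.07.

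Slc7a7, the light chain y+LAT1 that exchanges cationic for neutral amino acids, is described because of its spread, a choice made after its values were seen. It read 8.60, 8.65, 8.25 and 8.45 on deletion replicates 1 to 4, against 8.79, 8.71 and 8.11 on control replicates 1 to 3. Deletion replicate 3 and control replicate 3 were the lowest arrays of their groups, and the groups overlapped. The difference was -0.05 (SE 0.17), and its within-group spread was wider than that of 94.1% of all genes.

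Slc7a11 is a known target of ATF4 in mouse cells. Its promoter is shown with that of Slc7a7 because these light chains and genes of the ATF4 list were low on the same array, control replicate 3. That array was the lowest control for 10 of 20 bright members, and a part of ATF4 in these values was not tested. The windows are the 250 bases before the annotated start, from RefSeq on GRCm38.p6, at chr3:50443614-50443863 on the minus strand for Slc7a11 and at chr14:54417703-54417952 on the minus strand for Slc7a7, which has 5 listed starts, of which the window with most matches is shown. Capitals mark TGATGNAA, the core of the sites that ATF4 binds together with C/EBP proteins, on either strand (TTGCATCA is one read on the opposite strand), and in Slc7a7 also AGATAA, a form of the site of GATA factors.
Slc7a11: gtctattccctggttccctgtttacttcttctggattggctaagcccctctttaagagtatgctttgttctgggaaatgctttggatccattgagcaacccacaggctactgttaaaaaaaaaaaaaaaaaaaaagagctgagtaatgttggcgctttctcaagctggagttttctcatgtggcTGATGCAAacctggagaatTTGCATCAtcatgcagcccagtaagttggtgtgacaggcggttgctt
Slc7a7: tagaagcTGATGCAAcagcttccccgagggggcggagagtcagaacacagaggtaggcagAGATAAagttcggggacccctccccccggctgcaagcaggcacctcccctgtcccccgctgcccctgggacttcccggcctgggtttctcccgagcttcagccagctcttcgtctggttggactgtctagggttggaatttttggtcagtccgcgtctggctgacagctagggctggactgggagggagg
The Slc7a11 window held TGATGNAA in both orientations, starting 66 and 47 bases before the gene start. In the Slc7a7 window it began 243 bases before the start and AGATAA 190 bases before it. Windows were listed for 42 of the 59 members, 61 windows in all. TGATGNAA was found in 4 of these 61, belonging to Slc7a11, Slc7a7 and Slc6a21, beside 3.45% of all 32851 windows of the same length. None of the other bright members that read lowest of the controls on replicate 3 had a match in the listed windows. AGATAA was found in 4 of the 61, belonging to 3 genes, beside 9.99% of all windows. A match is a description of the letters and not a bound site.

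Among the cationic carriers, which bring arginine and lysine into the cell, Slc7a1 (CAT1) was bright and even. It read 10.78, 10.78, 10.75 and 10.83 on deletion replicates 1 to 4, against 10.67, 10.80 and 10.58 on control replicates 1 to 3. Control replicate 3 was the lowest array and control replicate 2 lay among the deletion arrays, and the difference was 0.10 (SE 0.07). Slc7a3 (CAT3), known chiefly from neurons, had the largest difference of any member, -0.57 (SE 0.49, limma adjusted p = 0.999, 95% interval -1.70 to 0.56). It rested on one array. Slc7a3 read 6.55, 6.29, 6.18 and 6.91 in deletion cells, against 6.67, 8.46 and 6.04 in control cells. Control replicate 2 was far above every other array and control replicate 3 was below all of them. Without control replicate 2 the difference was 0.13, and without control replicate 3 it was -1.08. Slc7a2, Slc7a4 and Slc7a14 read between 4.42 and 5.24.

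Both SLC1 exchangers of small neutral amino acids were bright. Slc1a5 (ASCT2), the main sodium-dependent glutamine carrier of many proliferating cells, averaged 9.52 ± 0.09 in deletion cells (SD, n = 4) and 9.51 ± 0.12 in control cells (SD, n = 3). The groups overlapped fully, with a difference of 0.01 (SE 0.08), and the sign changed to -0.01 when arrays were centred on their medians. Its second probeset, at 6.21, differed by -0.05. Slc1a4 (ASCT1), a serine and alanine exchanger, read 9.40, 9.35, 9.35 and 9.36 on deletion replicates 1 to 4, against 9.21, 9.50 and 9.10 on control replicates 1 to 3. The 4 deletion arrays lay within 1.04-fold of one another, while the control arrays lay on both sides of them and spanned 1.32-fold. The difference was 0.09 (SE 0.10). It was 0.21 without control replicate 2 and 0.0069 without control replicate 3, and neither passed the adjusted p in limma.

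The 5 SLC1 glutamate carriers were dim, and the only member whose groups did not overlap was one of them. Slc1a6 (EAAT4), a glutamate carrier best known from cerebellar Purkinje cells, read 6.07, 6.10, 6.10 and 6.14 on deletion replicates 1 to 4, against 5.92, 5.82 and 5.81 on control replicates 1 to 3. Every deletion array was above every control array. Means were 6.10 ± 0.03 in deletion cells (SD, n = 4) and 5.85 ± 0.06 in control cells (SD, n = 3). Deletion minus control was 0.25 (SE 0.06, 95% interval 0.11 to 0.40) or 1.19-fold. The limma p was 0.0032 unadjusted and 0.999 adjusted, so the gene did not pass. The signal, slightly above the lymphoid markers, lay within the range of the stromal and endothelial markers, 5.08 to 6.92. It has no detection call. Groups did not overlap in 5.19% of all genes, with deletion higher in 2.65% and lower in 2.54%, beside 1 of 59 members higher and 0 lower. Leaving out a single array left Slc1a6 without overlap each time, which is so by construction once all arrays are separate. It also raised the number of members without overlap to 3 without control replicate 1, 7 without control replicate 2 and 8 without control replicate 3, where 12%, 14.3% and 15% of all genes did not overlap. It was 2 without deletion replicate 2, 3 or 4, beside 9.78%, 9.02% and 8.09% of all genes, and stayed at 1 without deletion replicate 1, beside 8.56%. At an unadjusted p under 0.05 the limma fit gave 4 members without control replicate 2 or 3, beside 5.15% and 7.14% of all genes, and 2 without control replicate 1 or deletion replicate 2, beside 4.79% and 4.52%. Slc1a7, a glutamate carrier of the retina, differed by 0.18 (SE 0.12) at a signal of 5.75.

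In the SLC6 family, whose members use sodium and chloride, 16 of 17 genes were dim and 1 was bright. Slc6a8, the creatine carrier, read 7.93, 8.11, 7.88 and 7.80 on deletion replicates 1 to 4, against 8.10, 7.997 and 8.32 on control replicates 1 to 3. Control replicate 3 was the highest array and 3 deletion arrays were the lowest, with deletion replicate 2 among the controls. The difference was -0.21 (SE 0.10, limma adjusted p = 0.999), which did not pass, and it ranged from -0.28 to -0.12 as each array was left out. Carriers of the family known from brain were dim, with the dopamine carrier Slc6a3 at 5.73 and the vesicular neutral amino acid carrier Slc6a17 at 5.67. Slc6a17 differed by 0.13 (SE 0.10), Slc6a21 by -0.18 (SE 0.13) and Slc6a3 by -0.05 (SE 0.12), all with overlapping groups. Slc6a6, Slc6a11, Slc6a12 and Slc6a13, which lie on the chromosome of Lockd and Cdkn1b, differed by -0.01 to 0.08.

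Of the 4 proton-coupled SLC36 genes, Slc36a4 and Slc36a1 were bright. Slc36a4, a carrier of proline and tryptophan, read 12.26, 11.99, 12.14 and 12.27 on deletion replicates 1 to 4, against 12.22, 12.09 and 12.02 on control replicates 1 to 3. The groups overlapped, with a difference of 0.06 (SE 0.09). Its second probeset read 4.21 and differed by 0.09. Slc36a1, the lysosomal carrier PAT1, averaged 7.52, while its chromosomal neighbours Slc36a2 and Slc36a3 read 5.35 and 4.94. Slc36a3 differed by -0.15 (SE 0.23), the largest negative difference after Slc7a3, Slc6a8 and Slc6a21.

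Slc38a2 (SNAT2), the sodium-coupled carrier of the amino acid starvation response, was one of the steadiest genes on the arrays. It read 11.34, 11.29, 11.27 and 11.30 on deletion replicates 1 to 4, against 11.31, 11.34 and 11.28 on control replicates 1 to 3. All 7 arrays lay within a few hundredths of each other, the groups overlapped fully, and the within-group standard deviation of 0.03 lay at the 0.992nd percentile of all genes. The difference was -0.01 (SE 0.06, 95% interval -0.14 to 0.13). Its chromosomal neighbours Slc38a1 and Slc38a4, the other system A carriers, were dim at 5.14 and 4.08, and Slc38a1 differed by 0.06 (SE 0.10). The system N carrier Slc38a5, which exchanges glutamine, was likewise dim at 5.43, with a difference of -0.07 (SE 0.13). Among the 6 remaining SLC38 genes, Slc38a10 averaged 9.52, Slc38a6 9.19, the lysosomal arginine sensor Slc38a9 9.17 and Slc38a7 8.25. Slc38a10 differed by -0.07 (SE 0.07), and its dim second probeset by 0.04. Differences were negative in 5 of these 6, down to -0.12 for Slc38a6, and none passed.

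All 3 SLC43 genes were bright, and Slc43a1 (LAT3), a sodium-independent carrier of branched-chain amino acids, was the most variable carrier. It read 7.88, 6.74, 6.27 and 9.33 on deletion replicates 1 to 4, against 6.87, 7.04 and 8.39 on control replicates 1 to 3. Deletion replicate 4 was the highest array and deletion replicate 3 the lowest, and control replicate 3 stood above the other controls, so each group held both high and low arrays. The deletion arrays spanned 8.35-fold and the control arrays 2.85-fold. The within-group standard deviation of 1.18 was wider than that of 99.95% of all genes. Means were 7.55 ± 1.36 in deletion cells (SD, n = 4) and 7.43 ± 0.83 in control cells (SD, n = 3). The difference of 0.12 (SE 0.70, 95% interval -1.47 to 1.71) was -0.47 without deletion replicate 4 and 0.60 without deletion replicate 3. Its sign also turned without control replicate 1 (-0.16) or control replicate 2 (-0.08). Slc43a3, a purine carrier that lies 1 gene away from it, averaged 11.32 and differed by -0.05 (SE 0.07), with a within-group standard deviation of 0.08. Slc43a2 (LAT4) averaged 7.79.
The 250 bases before the start of Slc43a1, at chr2:84840073-84840322 on the plus strand (RefSeq, GRCm38.p6), are shown because the gene had the widest spread. Capitals mark CACGTG, the E-box bound by MYC and by MITF and TFE factors, which reads the same on both strands.
Slc43a1: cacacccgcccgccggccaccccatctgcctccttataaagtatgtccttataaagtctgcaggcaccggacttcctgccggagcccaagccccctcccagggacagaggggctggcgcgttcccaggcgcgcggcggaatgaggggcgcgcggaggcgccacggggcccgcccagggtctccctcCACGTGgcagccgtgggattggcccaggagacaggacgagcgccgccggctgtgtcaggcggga
The E-box began 64 bases before the start. It was found in 9 of the 61 member windows, from 9 genes, beside 6.02% of all windows. Neither TGATGNAA nor AGATAA lies in this window, which says only that these letters are not in it.

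**Figure D3:**
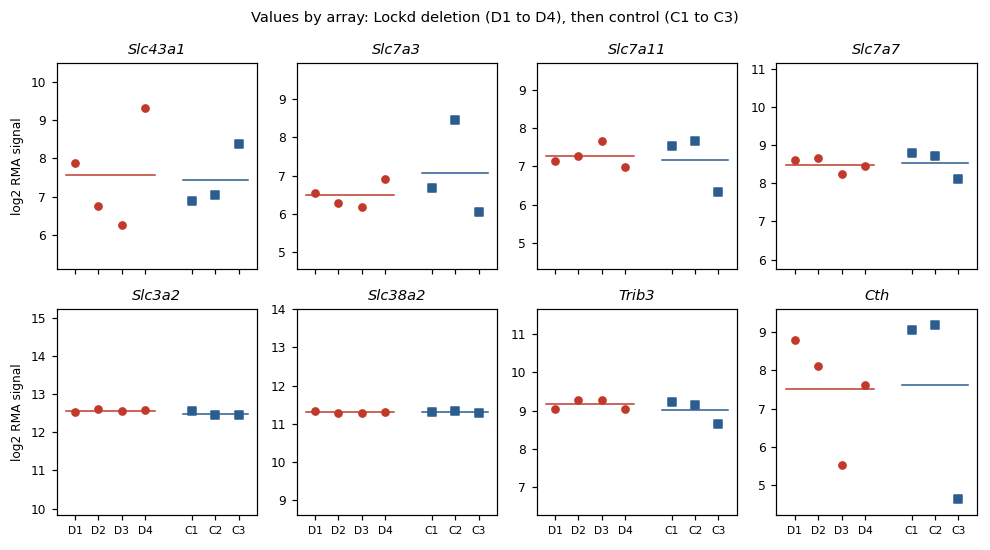
Log2 RMA signal (vertical axis, equal span in each panel) of 6 carrier genes and of Trib3 and Cth on each array, Lockd deletion arrays D1 to D4 in red and control arrays C1 to C3 in blue, with group means as lines. Slc3a2 and Slc38a2 are flat, while Slc43a1, Slc7a3 and Slc7a11 vary within both groups, and Cth ranges from 4.63 to 9.19 within the control arrays.

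The carriers differed widely in how far replicate arrays lay apart. The median within-group standard deviation was 0.133 over the 59 members, beside 0.126 over all genes, and 0.111 over the 20 bright ones. Above the 90th percentile of all genes lay 7 members, namely Slc43a1, Slc7a3, Slc7a11, Slc36a3, Slc7a7, Slc7a14 and Slc1a3. The leading 3 were also the dimmest of the bright set. Slc7a3 and Slc43a1 ranked the 4 deletion arrays alike, with replicate 4 the highest, then replicates 1, 2 and 3. Among the controls their order differed, with Slc7a3 highest on replicate 2 and Slc43a1 on replicate 3.

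**Figure D4:**
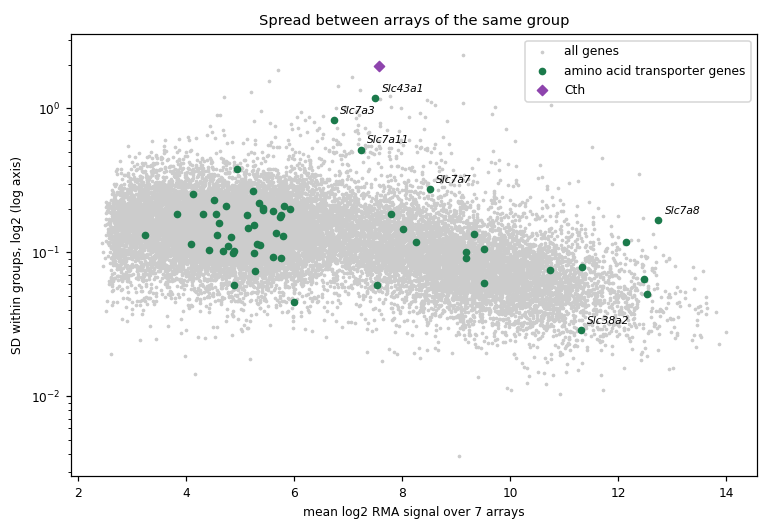
Within-group standard deviation of each gene on a log axis (vertical) against its mean log2 RMA signal over 7 arrays (horizontal), with all genes as grey dots, the 59 amino acid carrier genes in green and Cth in purple. Slc43a1 (1.18), Slc7a3 (0.83) and Slc7a11 (0.52) lie at the top of the cloud, and Slc38a2 (0.03) at its lower edge.

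Deviations from the group means were then compared between carriers over the 7 arrays, as a description, since the points share arrays. The median correlation between pairs of members was 0.08 over all 59, -0.00 among the 20 bright genes and 0.23 among the 39 dim ones, beside 0.00 over all genes. Among the dim genes the same arrays tended to read high or low. Deletion replicate 1 was the highest deletion array for 22 of 39 dim members, or 56.4%, beside 29.6% of all genes under a mean of 6. Of the controls, replicate 2 read lowest for 25 of 39, or 64.1%, beside 46.3% of such genes. Both arrays also led these counts among all genes under a mean of 6, and the part of that shift in the values of the carriers was not tested.

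Of the controls, replicate 3 read lowest for 10 of 20 bright members, namely Slc7a5, Slc36a4, Slc38a2, Slc7a1, Slc38a10, Slc1a5, Slc1a4, Slc7a7, Slc7a11 and Slc7a3, beside 36.6% of all genes at a mean of 6 or more. It also read lowest for 14 of 21 genes of a list of ATF4 and amino acid response genes, or 66.7%. For a list of 35 genes of amino acid sensing and mTORC1 it read lowest for 13, or 37.1%, near the share of all genes at 6 or more. It read highest for 7 of the 20 bright members, beside 29.5% of all genes at 6 or more. In deletion cells the lowest array differed between the bright members and the ATF4 list. Deletion replicate 3 read lowest for 8 of 20 bright members and 2 of 21 ATF4 list genes, beside 19.9% of all genes at 6 or more. Deletion replicate 1 read lowest for 4 of 20 and 11 of 21, beside 29.9%. The examples Trib3, Nupr1, Chac1 and Cth were chosen after their values were seen. Trib3, a pseudokinase gene induced by ATF4, read 9.04, 9.29, 9.28 and 9.04 on deletion replicates 1 to 4, against 9.22, 9.16 and 8.64 on control replicates 1 to 3. Nupr1, a stress-induced chromatin protein gene, read 9.12, 9.19, 9.40 and 9.16 in deletion cells, against 9.30, 9.27 and 8.94 in control cells. Chac1, which encodes an enzyme that degrades glutathione, read 7.37, 7.54, 7.51 and 7.32 in deletion cells, against 7.57, 7.48 and 7.18 in control cells. In all 3 genes control replicate 3 was the lowest of the 7 arrays, as it was for Slc7a11. Within the ATF4 list the median correlation of deviations was 0.33.

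Cth, the enzyme that makes cysteine from cystathionine, varied most among these genes. It read 8.80, 8.12, 5.52 and 7.62 on deletion replicates 1 to 4, against 9.06, 9.19 and 4.63 on control replicates 1 to 3. Deletion replicate 3 and control replicate 3 were far below the rest of their groups. These 2 arrays were also the lowest of their groups for Slc7a7, and likewise for Slc7a1, Slc7a3, Slc38a2 and Slc1a4. The deletion arrays of Slc7a1, Slc38a2 and Slc1a4 spanned only 0.08, 0.06 and 0.05, beside 3.28 for Cth. In Slc1a4 deletion replicate 3 read 9.348 and deletion replicate 2 read 9.352. Being lowest by so little is not read as a drop shared with Cth. Slc7a11 was low on control replicate 3 and highest on deletion replicate 3. The Cth difference was -0.11 (SE 1.16).

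Genes around the carriers also showed no call in the limma fit. Of 35 measured genes of amino acid sensing and mTORC1, 0 passed an adjusted p under 0.05 and 2 were lower in deletion cells at an unadjusted p under 0.05, beside 2.37% of all genes in that direction. These were Fnip2, a folliculin partner at the lysosome, with a difference of -0.26 (SE 0.09), and Bmt2, also known as the methionine sensor Samtor, with -0.24 (SE 0.10). Fnip1, the paralogue of Fnip2, differed by -0.16 (SE 0.08). The median difference of this list was -0.01. Of 21 measured genes of the ATF4 list 0 passed, and 1, the mTORC1 inhibitor Ddit4, was lower at an unadjusted p under 0.05, with -0.33 (SE 0.14), while the list's median was 0.03. Atf4 itself read 10.60, 10.52, 10.74 and 10.61 on deletion replicates 1 to 4, against 10.65, 10.56 and 10.46 on control replicates 1 to 3, with overlapping groups and a difference of 0.06 (SE 0.08). Asparagine synthetase, Asns, averaged 12.34 and differed by 0.03 (SE 0.06), and its sign turned to -0.01 under quantile normalization. Eif2ak4, which encodes the kinase GCN2 that senses uncharged transfer RNA, differed by -0.12 (SE 0.06), and the C/EBP family member Cebpb by 0.14 (SE 0.10).

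Of 16 measured genes for glutamine, glutamate and glutathione enzymes 0 passed. Gclm, the regulatory subunit of the enzyme that starts glutathione synthesis, was higher at an unadjusted p under 0.05, with 0.15 (SE 0.06), as the 1 gene of the list to do so, beside 2.24% of all genes called in that direction. Gfpt1 of hexosamine synthesis differed by -0.10 (SE 0.07) and the alanine transaminase Gpt by -0.11 (SE 0.08). Of 26 amino acid carriers of other families or outside the symbol pattern 0 passed. At an unadjusted p under 0.05, 2 were lower in deletion cells, namely the lysosomal cystine exporter Ctns, with -0.16 (SE 0.07), and Slc6a20b, a proline carrier gene, with -0.35 (SE 0.15), beside 2.37% of all genes called in that direction. The Slc6a20b difference was -0.22 without control replicate 2. Slc6a20a, its close paralogue, differed by -0.25 (SE 0.18), or by -0.02 without control replicate 3 and -0.455 without control replicate 2, and the signals of such close paralogues may not be fully separate. Slc25a38, the mitochondrial glycine carrier that supplies heme synthesis, averaged 9.44 with a difference of 0.01 (SE 0.09). The medians of these lists were -0.00 and 0.01.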

How the data were processed

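Gene expression was measured in 4 Lockd deletion and 3 control samples, each on 1 array. Per the submitters' processing notes, the authors used the RMA method of Affymetrix Expression Console, and the deposited values, from 1.87 to 14.01, have the range of log2 signals. No source used here states the versions, the library files or the genome build. Of 41345 probesets, 23521 carried exactly 1 symbol in the platform annotation and were tested, 1814 carried several and 16010 were not listed. All 59 members matched their gene ID in RefSeq's GRCm38.p6 gene table, used for names and neighbours, and promoters came from RefSeq's promoter windows of that build. No pair of arrays held identical values, and their number limits the precision.

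Deletion minus control differences came from limma 3.58.1 (lmFit and eBayes, R 4.3.3). Tests were two-sided, p-values were adjusted over the 23521 probesets by Benjamini-Hochberg, the threshold was 0.05 and intervals are at 95%. On simulated data the fit recovered 48.2%, 88.4%, 98.2% and 99% of changes of 0.5, 1, 1.5 and 2. There it made 9.3 false calls among 176.2 on average. The real fit made 2 calls, so these rates are likely too high for a single gene. Spread was measured from deviations from group means. Alternatives were leaving out each array, both replicate numberings as a block, all 41345 probesets, a filter (over 5 on at least 3 arrays), centring on array medians, quantile normalization, a variance trend with robust moderation and the mean over probesets.

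The carrier genes named were those that passed, those at an unadjusted p under 0.05 or without overlap, the 5 largest differences in each direction, the 10 brightest, the brightest of each role and a set known from proliferating or erythroid cells. From each list of related genes up to 3 with the smallest p were named, with Atf4, Asns and Slc25a38. Others are marked as chosen after their values were seen, or given with the range they bound. The members, lists and tests were chosen with earlier results of these data known.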

Additional observations from a re-analysis of the deposited data

Results flagged for a closer look

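Gaps within the 4 deletion arrays were looked for in 80 genes, and 2 showed 1 array far from the other 3. Chance gives about 1 in 20 groups, so this is fewer than chance alone would give. Slc38a7, a lysosomal glutamine carrier, read 8.42 on deletion replicate 2, against 8.18 to 8.19 on the other deletion arrays. The gap was 0.967 of the group's range, above Dixon's critical value for 4 samples, and the control arrays read 8.13, 8.29 and 8.35. Lockd read 4.17 on deletion replicate 3, against 5.09 to 5.15 on the other deletion arrays, a gap of 0.939 of the range.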

How the results depend on the processing

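No carrier gene passed an adjusted p under 0.05 in limma under any of the 15 alternatives. Of 584 alternative values of 39 named genes, 548 kept their direction and 36 turned it. None of these 39 genes passed the limma adjusted p with all arrays, and Lockd and Cdkn1b are not among them. The count therefore does not compare called with uncalled genes. The median difference of the carriers stayed between -0.03 and 0.01 as each array was left out. The count of carriers at an unadjusted p under 0.05, 1 in the report, was 2 with arrays centred on their medians. It was 0 with the description numbers as a replicate block, and 1 to 4 as each array was left out. Over all genes the share was 4.61% in the report and 3.63% to 7.14% as each array was left out. The count without overlap, also 1, was 3 with arrays centred, 2 after quantile normalization and 1 to 8 as each array was left out. Over all genes 5.19% lacked overlap in the report and 8.09% to 15% as each array was left out. With fewer arrays more genes lack overlap by construction. The related genes at an unadjusted p under 0.05 numbered 6, against 3 with all probesets tested. They numbered 2 and 0 with the title and description numbers as a replicate block, and 1 to 5 as each array was left out. Shares over all genes are not given here for the centred, quantile, all-probeset and block settings. The counts of those settings are thus not read as results about the carriers or related genes.

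Signs turned for Slc7a8 at -0.021 and Slc1a5 at -0.011 with arrays centred, and for Slc25a38 at -0.018. After quantile normalization Slc7a8 was at -0.029 and Asns at -0.0059, and with the mean over probesets Slc1a5 was at -0.021. With description numbers as a replicate block, Slc43a1 was at -0.40, Slc38a1 at -0.059, Slc25a38 at -0.090, Slc36a3 at 0.034, Slc6a3 at 0.035 and Slc38a2 at 0.0008. With title numbers as a replicate block, Slc43a1 was at -0.47 and Slc7a8 at -0.0048. Same-numbered arrays deviated together with correlations of 0.02, 0.06 and -0.10, so the numbers were not taken to pair the arrays, and the block settings are given here only; the description numbers differ from those of the titles in deletion arrays. As each array was left out, Slc7a3 ranged from -1.08 to 0.13, Slc43a1 from -0.47 to 0.60, Slc7a11 from -0.33 to 0.33, Slc36a3 from -0.36 to 0.012, Slc38a5 from -0.20 to 0.015, Slc6a3 from -0.15 to 0.079, Slc7a8 from -0.12 to 0.068, Slc25a38 from -0.087 to 0.064, Slc1a5 from -0.055 to 0.064, Slc38a1 from -0.016 to 0.13, Slc38a2 from -0.025 to 0.0059 and Slc7a5 from -0.0049 to 0.077. The cause of these changes was not tested. Lockd and Cdkn1b kept their direction in every setting but missed the threshold with all probesets tested and under both blocks. Cdkn1b also missed it as each array was left out, except without deletion replicate 2. Lockd missed it in most of these fits too. The 7 arrays give no detection call, and dim carriers limit what can be seen.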
